A study of Mus musculus with 9 samples.

Results

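The nuclear genes for subunits of the oxidative phosphorylation complexes were followed in CD11b+ B cells, CD11b- B cells and peritoneal macrophages (PMs). Members were the protein-coding genes whose symbols start with Nduf plus a, b, c, s or v and a digit, with Uqcr, with Cox plus a digit from 4 to 8, or with Atp5, together with Sdha, Sdhb, Sdhc and Sdhd. The rule used names only and found 88 of the 55322 genes in the table, or 88 of the 21821 that are protein coding. Of these, 37 belong to complex I, 4 to complex II, 8 to complex III, 21 to complex IV and 18 to complex V. Both kinds of B cell were sorted from the BM of wild-type C57BL/6 mice 48 h after intraperitoneal LPS at 5 mg/kg, and CD11b, a myeloid integrin chain, separated them. The PMs, gated as CD11b+F4/80+, came from the peritoneal cavity of wild-type mice without treatment. Each group had 3 libraries of amplified full-length cDNA. The ages of the mice and the number pooled per library are not stated in the labels or methods read here, and p-values therefore measure only the spread between libraries, which may be technical.

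In the inner mitochondrial membrane, complexes I and II pass electrons from NADH and succinate to ubiquinone, complex III hands them to cytochrome c, and complex IV reduces oxygen. Complex V, the ATP synthase, uses the proton gradient that complexes I, III and IV build. Complexes I, III, IV and V join subunits from the nucleus with subunits from mitochondrial DNA, while complex II is wholly nuclear. Complexes I, III, IV and V join large subunits, many of which carry cofactors or catalytic sites, with short supernumerary (accessory) subunits, whereas complex II has none of the latter. The 20 members counted here as core are 7 of complex I, among them Ndufs1, Ndufs8 and Ndufv1, the 4 Sdh genes, Uqcrc1, Uqcrc2 and Uqcrfs1 of complex III, Cox4i1, Cox5a and Cox5b of complex IV, and Atp5a1, Atp5b and Atp5c1 of complex V. The remaining members, called the other members, are largely accessory subunits but also hold conserved parts of complex V such as Atp5d, Atp5e and the ring genes Atp5g1, Atp5g2 and Atp5g3. The catalytic subunits of complex IV itself are encoded in mitochondria, so its 3 core members are the larger nuclear ones. None of the genes of the mitochondrial chromosome was in the table, and those subunits were not analysed here.

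Depth ranged from 18014658 to 35251215 reads on genes per library, and the members took 1.06% to 1.55% of them. A 13-gene B cell marker list summed to 13185 to 16347 FPKM (fragments scaled by exon length and by library size) in the B cell libraries and to 141 to 276 FPKM in PMs. A 12-gene macrophage list summed to 26117 to 63609 FPKM in PMs, 42.0 to 60.03 FPKM in CD11b- B cells and 122 to 323 FPKM in CD11b+ B cells. The labels therefore match the markers. Of the 88 members, 81 had a mean FPKM of at least 0.05 and were tested by limma on log2(FPKM + 1), with p-values adjusted over all genes tested and a threshold of 0.05.

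Against PMs, the CD11b- B cells had less RNA of most other members, while core subunits were called higher about as often as other genes of like abundance. Among the 20 core members, 10 were higher in CD11b- B cells and 3 lower, whereas of the 61 other members tested none was higher and 33 were lower. Over all 20985 genes tested, 25.8% were called higher and 11.0% lower. Among the more abundant genes (mean FPKM 10 or above), the range of most members, these shares were 42.5% and 19.3%, so that the 10 of 20 core members called higher are near the background and the 33 of 61 others called lower are above it. The median log2 difference was 0.70 for the core members and -0.71 for the others, beside 0.24 for all genes tested and 0.55 for the more abundant ones. The 3 libraries of each group did not overlap, with CD11b- B cells higher, for 14 core members and no other member, against 36.1% of all genes. They did not overlap in the opposite direction for 3 core and 45 other members, against 15.2% of all genes. The PMs differ from the B cells in cell type, tissue and LPS at once, and these cannot be told apart. In bulk RNA, moreover, fewer cells of a type and less RNA per cell cannot be told apart.

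**Figure D1:**
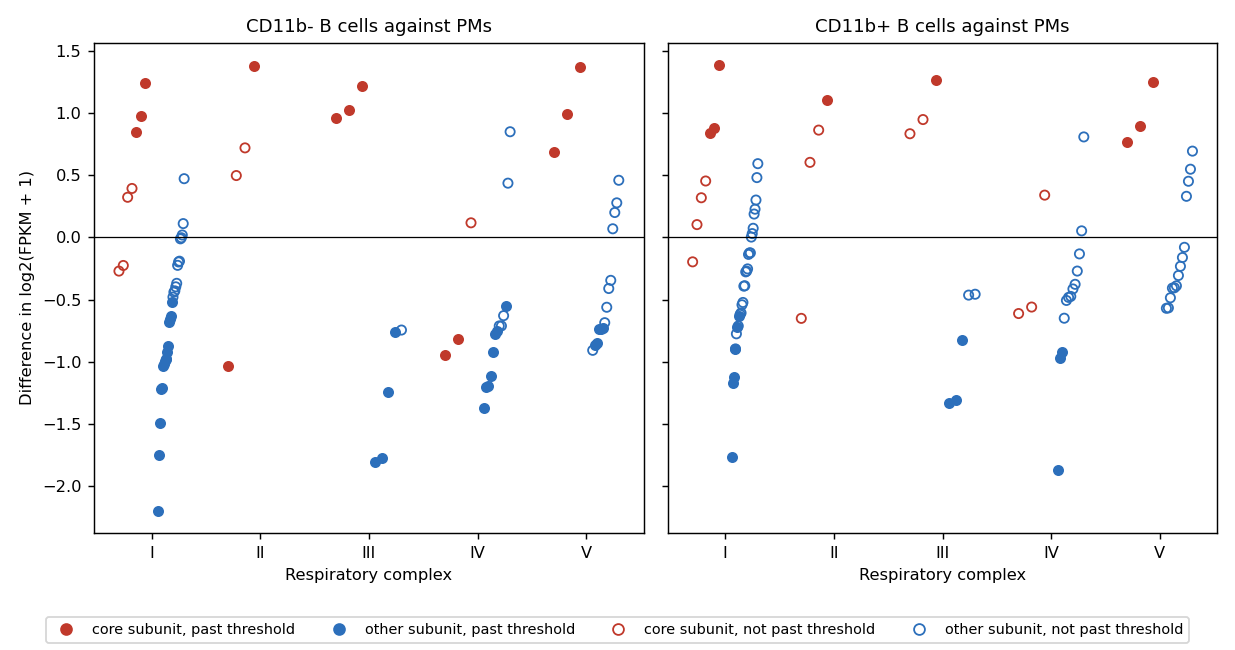
Difference in mean log2(FPKM + 1) from PMs for the 81 members tested, by respiratory complex, in CD11b- B cells (left) and CD11b+ B cells (right). Each point is a gene, red for core and blue for other subunits, and filled points pass an adjusted p of 0.05. The filled points above 0 are all red in both panels, 10 on the left and 8 on the right.

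All 4 subunits of complex II are nuclear, and they did not move together. Sdha, the flavoprotein that oxidises succinate (GRCm38 chr13:74322254-74350280, minus strand), had 38.5, 30.4 and 45.7 FPKM in PMs and 109, 102 and 89.4 FPKM in CD11b- B cells. It was 2.62-fold higher there (log2 difference 1.38, SE 0.19, limma adjusted p = 0.00117). The membrane anchor Sdhc (chr1:171127165-171150603) stood at 21.2, 26.8 and 17.6 FPKM in PMs and fell to 9.85, 11.9 and 8.52 FPKM in CD11b- B cells. Its log2 difference was -1.03 (SE 0.22, limma adjusted p = 0.00810). Sdhb, the iron-sulphur subunit, and Sdhd, the second anchor, had higher values in every CD11b- library than in any PM library, with log2 differences of 0.50 and 0.72, but neither passed the threshold (limma adjusted p = 0.0920 and 0.0886). The summed FPKM of complex II was 166 to 262 in PMs and 332 to 362 in CD11b- B cells.

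In complex III the 3 core members and the 5 others parted completely. Uqcrfs1, the Rieske iron-sulphur protein (chr13:30540308-30545362), had 48.3, 48.2 and 81.9 FPKM in PMs and 146, 139 and 121 FPKM in CD11b- B cells. The lowest B cell library was above the highest PM library, and the log2 difference was 1.21 (SE 0.23, limma adjusted p = 0.00575). The core proteins Uqcrc1 and Uqcrc2 were also higher, by 0.96 and 1.02 (SE 0.31 and 0.21, limma adjusted p = 0.0434 and 0.00679). Uqcrb, which helps to bind ubiquinone (chr13:66900617-66905378), had 431, 393 and 275 FPKM in PMs and 125, 110 and 77.9 FPKM in CD11b- B cells. It was thus 3.51-fold higher in PMs (log2 difference -1.80, SE 0.25, limma adjusted p = 0.00122). The small subunit Uqcr11 (chr10:80402997-80406830) went from 515, 566 and 288 FPKM in PMs to 113, 137 and 132 FPKM in CD11b- B cells (log2 difference -1.78, SE 0.27, limma adjusted p = 0.00198). Uqcrh and Uqcrq also fell, with log2 differences of -0.76 and -1.24, and Uqcr10 at -0.74 did not pass.

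Complex I gave the largest fall. Ndufa1, a short subunit of the membrane arm encoded on the X chromosome (chrX:37187588-37191163), had 1185, 878 and 760 FPKM in PMs and 207, 222 and 176 FPKM in CD11b- B cells. PMs had 4.67 times as much (log2 difference -2.20, SE 0.22, limma adjusted p = 0.000265). Ndufa5 (chr6:24518666-24528013), an accessory subunit of the matrix arm, had 188, 137 and 102 FPKM in PMs against 45.1, 41.3 and 35.4 FPKM (log2 difference -1.75, SE 0.24). Ndufb4 (chr16:37647170-37654453), of the membrane arm, had 53.4, 51.3 and 30.5 FPKM against 15.7, 14.5 and 14.7 FPKM (log2 difference -1.49, SE 0.23). Both passed, with limma adjusted p-values of 0.00114 and 0.00222. In all, 16 of the 29 accessory members of complex I tested fell and none rose. Of its 7 core members, 3 rose and none fell. Ndufs1, the largest iron-sulphur subunit (chr1:63143596-63176833), rose from 4.54, 6.21 and 7.52 FPKM in PMs to 14.3, 17.1 and 15.3 FPKM (log2 difference 1.24, SE 0.22, limma adjusted p = 0.00373). Ndufv1, the subunit that binds NADH, and Ndufs8, an iron-sulphur subunit, rose by 0.84 and 0.97 on the log2 scale. For Ndufs7 and Ndufv2 the log2 differences were -0.27 and -0.23 and did not pass. Ndufs3 had 23.0 to 30.4 FPKM in PMs and 33.5 to 36.8 FPKM in CD11b- B cells, without overlap, but its log2 difference of 0.32 did not pass either.

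Complex V repeated the division. Atp5b, the catalytic beta subunit (chr10:128083273-128090391), had 88.3, 104 and 121 FPKM in PMs and 296, 280 and 236 FPKM in CD11b- B cells. The 2.59-fold difference (log2 1.37, SE 0.18) had a limma adjusted p of 0.00105. Atp5a1 and Atp5c1, the alpha and gamma subunits, were higher by 0.995 and 0.684 (SE 0.22 and 0.19, limma adjusted p = 0.00996 and 0.0272). None of the 14 other complex V members tested rose, and 5 fell, with Atp5mpl at -0.87 and Atp5h at -0.85.

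In complex IV, 2 of the 3 core members fell and none rose. Cox4i1, the largest nuclear subunit, had 378, 448 and 384 FPKM in PMs and 214, 219 and 254 FPKM in CD11b- B cells (log2 difference -0.81, SE 0.17, limma adjusted p = 0.00814). Cox5b had a log2 difference of -0.94 (SE 0.21, limma adjusted p = 0.0109), and Cox5a one of 0.12, which did not pass. Of the 13 other members tested, 8 fell and none rose. Cox8a had the highest mean FPKM of all members, with 587, 801 and 564 FPKM in PMs and 313, 367 and 338 FPKM in CD11b- B cells. Cox6b1, the third highest after Ndufa1, had 429, 599 and 391 FPKM against 280, 285 and 260 FPKM. Both fell (log2 differences -0.92 and -0.76, limma adjusted p = 0.0105 and 0.0247).

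**Figure D2:**
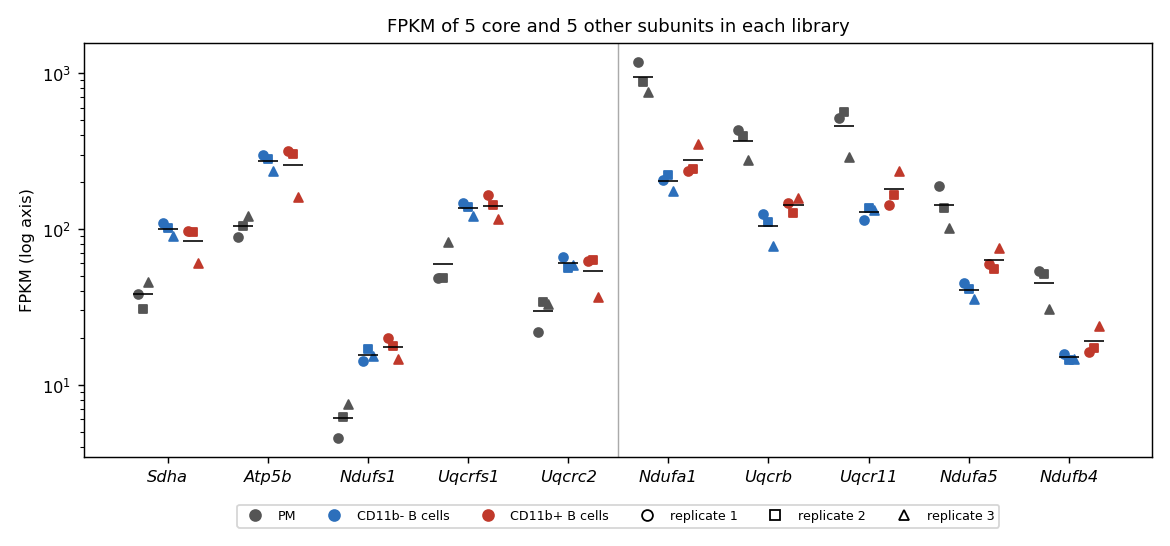
FPKM on a log axis in each of the 9 libraries for the 5 members with the largest rise (left of the line) and the 5 with the largest fall (right) in CD11b- B cells against PMs. Symbols mark replicates, colours mark groups and bars are group means. The 10 genes were picked among called members without overlap between CD11b- and PM libraries, so that separation follows from the choice, and CD11b+ replicate 3 (red triangles) lies nearer to the PM mean than the other CD11b+ libraries do for all 10.

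A share within a library does not depend on how libraries are scaled against each other. The core members made up 14.4%, 16.2% and 20.3% of the summed FPKM of all members in PMs and 34.8%, 32.4% and 33.5% in CD11b- B cells. The shares of the CD11b+ B cells were 33.2%, 32.4% and 23.0%. The division was widest in complex III, where the core took 6.52%, 7.62% and 16.4% of the complex in PMs, 38.5%, 34.8% and 35.2% in CD11b- B cells, and 36.8%, 34.2% and 20.5% in CD11b+ B cells. In complex I the core share was 7.77% to 11.1% in PMs and 21.1% to 21.8% in CD11b- B cells. In complex V it was 21.9% to 31.5% in PMs and 46.0% to 49.7% in CD11b- B cells. The CD11b+ B cells had 48.2%, 46.3% and 31.3% in complex V, where replicate 3 fell within the PM range, and 19.9%, 20.3% and 15.1% in complex I. In complex IV the shares overlapped, at 18.5% to 21.3% in PMs and 20.8% to 23.1% in CD11b- B cells. These shares are descriptions, and no test was run on them.

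**Figure D3:**
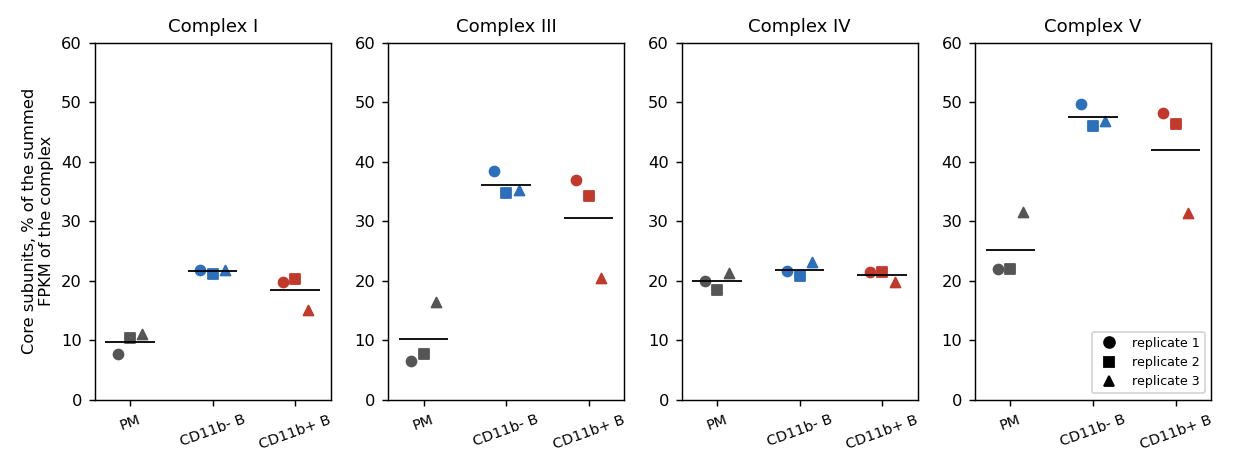
Share of a complex's summed FPKM that its core subunits take, in percent, in each library, for the 4 complexes that have both core and other members. Points are libraries, symbols mark replicates and bars are group means. Shares in PMs lie below those of all CD11b- libraries in complexes I, III and V and overlap them in complex IV, and CD11b+ replicate 3 lies lowest of its group in each.

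Scaling changed the balance of rises and falls. In FPKM, the median gene with a mean of at least 10 was 0.55 higher on the log2 scale in CD11b- B cells than in PMs. After median-ratio scaling, which removes such a shift, 2 members were higher (Sdha and Atp5b) and 52 lower, against 16.2% and 14.7% of all genes, where the FPKM gave 10 and 36. The core members then had a median of 0.17, with 11 of 20 above 0, and the others a median of -1.24, with 2 of 61 above 0. Of the 52 falls, 3 were of core members (Sdhc, Cox4i1 and Cox5b). Another 10 were of the 14 other complex V members, where the FPKM gave 5. Core members that had not passed turned below 0, among them Ndufs3 at -0.20, Sdhb at -0.03 and Cox5a at -0.41, and the median of the 7 core members of complex I went from 0.39 to -0.13. All 10 rises and all 36 falls kept their direction under the 7 other scalings and count models run. Of the rises, Sdha and Atp5b passed the threshold in all 7, and of the falls 25 did, among them Ndufa1, Uqcrb, Uqcr11, Ndufa5, Ndufb4 and Sdhc. Leaving out CD11b- replicate 1 or replicate 2 reduced the falls in FPKM from 36 to 17 or 23, while 1657 of 20687 or 1675 of 20727 genes were called lower.

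Exon length moved with these differences. It is set per gene in the table and was not shown to be the length of the transcripts present, with 6443 bases for Atp5l and 5628 for Ndufb2. Exon length in the table had a median of 2208.5 bases for the core members and 1237 bases for the other members tested. Across the 76 members with a mean FPKM of at least 10, the log2 difference rose with exon length (Spearman's rho 0.42), while across all 4815 such genes rho was 0.09. These are descriptions over genes that share libraries. Between 1000 and 2000 bases the 7 core members had a median of 0.68 and the 24 others one of -0.70, beside 0.0038 for all genes of that length. Above 2000 bases the 13 core members had a median of 0.84 and the 15 others one of -0.41, beside 0.63 for all genes. After each library's trend with length was removed, 4 members were higher (Sdha, Atp5b, Uqcrfs1 and Ndufs8) and 42 lower, against 16.3% and 14.9% of all genes.

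**Figure D4:**
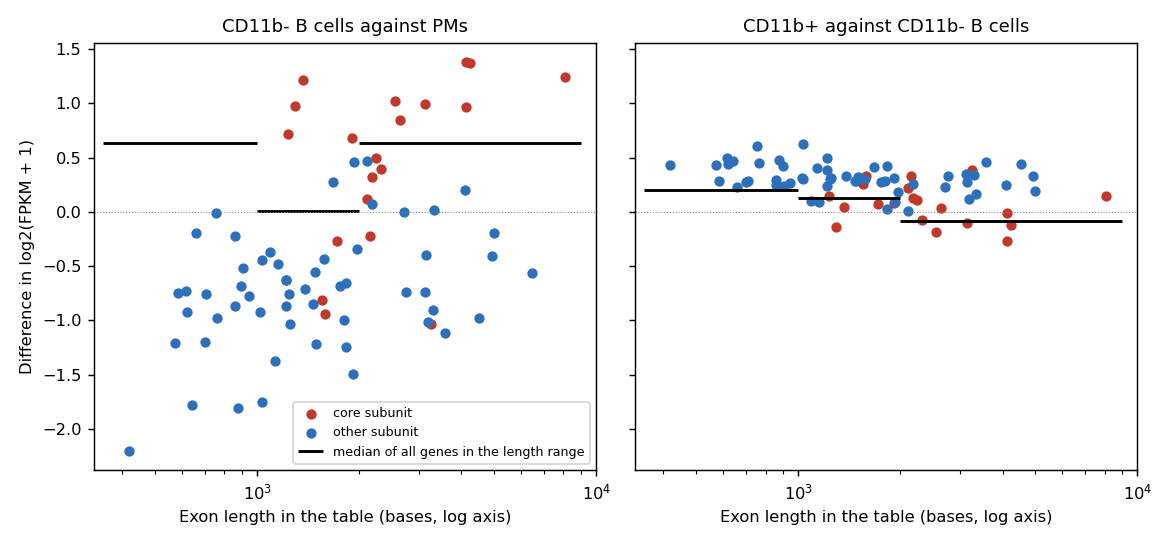
Difference in log2(FPKM + 1) against exon length (log axis) for the members with a mean FPKM of at least 10, in CD11b- B cells against PMs (left) and CD11b+ against CD11b- B cells (right). Each point is a gene and black lines are medians of all genes in 3 length ranges. On the left, core members (red) lie mostly above the other members (blue) of like exon length.

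Start regions are shown for a few members because promoters of this pathway are known to share binding motifs. RefSeq windows (GRCm38.p6) from 250 bases before to 50 bases after the start were matched by symbol for 69 of the 87 distinct member names, 14 of them core. NRF1 and the ETS factor GABP are known regulators of respiratory genes. The NRF1 letters GCGCATGC, on either strand, were found in 14.5% of these members and 3.05% of all genes with a window, and the ETS letters CCGGAAG in 24.6% and 9.93%. The YY1 letters AAGATGG were found in 15.9% and 7.28%. Median GC content was 58.3% in the members and 52.8% in all. At least 1 of the 3 motifs was found in 46.4% of these members and 18.6% of all genes with a window. Core and other members had near shares, at 6 of 14 windows (42.9%) and 26 of 55 windows (47.3%). By direction, 2 of the 7 windows of genes higher in CD11b- B cells than PMs held a motif. Of the 29 windows of genes that were lower, 16 did. The 170 bases before the RefSeq start are given for Sdha and Uqcrfs1, which rose, and for Uqcr11 and Cox6a1, which fell. They are also given for Sdhb, which did not pass but holds NRF1 letters. A stretch shortly after each start, not printed, was found in a GENCODE M21 transcript of the gene. All printed stretches run 5′ to 3′ on the gene's strand with motif letters in capitals. Coordinates are chr13:74350241-74350410 (minus strand), chr13:30545317-30545486 (minus), chr10:80406822-80406991 (minus), chr5:115348959-115349128 (minus) and chr4:140961101-140961270 (plus) in that order.
Sdha: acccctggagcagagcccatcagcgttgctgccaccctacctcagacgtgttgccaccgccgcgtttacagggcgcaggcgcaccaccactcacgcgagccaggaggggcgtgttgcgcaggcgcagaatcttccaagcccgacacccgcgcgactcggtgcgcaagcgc
Uqcrfs1: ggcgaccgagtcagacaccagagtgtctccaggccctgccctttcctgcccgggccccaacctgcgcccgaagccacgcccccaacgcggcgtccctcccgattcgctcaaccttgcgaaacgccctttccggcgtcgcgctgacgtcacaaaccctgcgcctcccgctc
Uqcr11: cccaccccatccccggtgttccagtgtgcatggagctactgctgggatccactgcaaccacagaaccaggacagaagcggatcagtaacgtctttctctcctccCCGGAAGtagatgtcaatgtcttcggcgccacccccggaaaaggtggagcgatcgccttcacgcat
Cox6a1: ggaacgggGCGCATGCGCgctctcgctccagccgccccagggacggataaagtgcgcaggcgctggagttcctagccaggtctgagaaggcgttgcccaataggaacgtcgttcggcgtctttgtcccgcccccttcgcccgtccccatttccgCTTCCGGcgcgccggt
Sdhb: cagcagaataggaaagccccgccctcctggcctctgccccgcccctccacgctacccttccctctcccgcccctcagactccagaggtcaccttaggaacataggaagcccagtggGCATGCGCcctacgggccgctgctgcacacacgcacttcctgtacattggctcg
Cox6a1 holds the NRF1 letters on both strands, overlapping, and the ETS letters on the other strand, Sdhb holds the NRF1 letters on the other strand and Uqcr11 the ETS letters, while none of the 3 motifs lies in the stretches of Sdha and Uqcrfs1. These genes were picked as examples, and whether motifs go with the direction of change was not tested. A match is a description of letters and not of a bound site.

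The CD11b+ B cells were compared with the same PM libraries, so their values are given beside those above and not as a second test of them. Of the 81 members tested, 8 were higher and 12 lower, against 21.5% and 8.78% of all 22102 genes tested and 37.9% and 16.8% of those with a mean FPKM of at least 10. The 8 that rose were all core (8 of 20, near the share of abundant genes). The 12 that fell were all other members (19.7% of the 61 tested), which is also near the share of abundant genes. Ndufs1 had 19.98, 17.6 and 14.6 FPKM in CD11b+ B cells, above all PM values (log2 difference 1.39, SE 0.24, limma adjusted p = 0.00374). Uqcrfs1 at 1.26, Atp5b at 1.25, Sdha at 1.11 and Atp5a1 at 0.89 followed (limma adjusted p = 0.00797, 0.0146, 0.0120 and 0.0444), and Ndufv1, Ndufs8 and Atp5c1 made up the 8. Uqcrc1 and Uqcrc2, which rose in CD11b- B cells, had log2 differences of 0.95 and 0.83 here and did not pass.

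Among the falls, Cox7a1, the heart and muscle form of a complex IV subunit (chr7:30184144-30186078), had 5.60, 4.16 and 3.15 FPKM in PMs and 0.0636, 0.286 and 1.11 FPKM in CD11b+ B cells, from 26 reads in all. Its log2 difference was -1.87 (SE 0.37, limma adjusted p = 0.00698). Ndufa1 had 236, 241 and 351 FPKM in CD11b+ B cells (log2 difference -1.77, SE 0.28, limma adjusted p = 0.00230). Uqcrb, Uqcr11 and Ndufb4 had log2 differences of -1.33, -1.31 and -1.17 (SE 0.23, 0.32 and 0.27), each with no overlap between groups. In all, 12 core members had every CD11b+ library above every PM library, as did 3 others, against 34.3% of all genes, and 2 core and 17 other members had every one below, against 12.4%. After median-ratio scaling Ndufs1 alone was called higher and 31 members were lower (13.2% and 11.6% of all genes). After the length trend was removed the numbers were 1 and 29 (13.4% and 12.1% of all genes), with Uqcrfs1 the 1 called higher. The core members Sdhc, Cox4i1 and Cox5b were among the falls under both corrections, though none of the 3 had passed in FPKM. Ndufs3, Ndufv2 and Cox5a, which had not passed, turned from 0.45, 0.10 and 0.34 to -0.03, -0.39 and -0.15 after median-ratio scaling.

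Replicate 3 of the CD11b+ B cells stood apart. A plasma cell marker list summed to 641 FPKM in it, against 288 and 252 FPKM in replicates 1 and 2. The macrophage list summed to 122 FPKM, against 323 and 301 FPKM. All genes summed to 446164 FPKM, against 384413 and 383897 FPKM. The part of these differences in the values of the members was not tested. The study sequenced RNA in repeated trials, and the labels do not say from which trial a library came, so a difference between trials was not tested. Of the 61 other members tested, CD11b+ replicate 3 had the highest value of its group for 51, and of the 20 core members the lowest for 14. Sdha had 96.9, 95.2 and 60.6 FPKM in the 3 libraries, Atp5b 314, 303 and 160 FPKM, and Uqcr11 143, 164 and 234 FPKM. Without this library, 8 members were higher and 17 lower than in PMs, where 4674 and 1696 of 21542 genes were, and the median over members went from -0.27 to -0.46. Leaving out replicate 1 or replicate 2 instead left 3 or 2 members higher and 3 lower in both cases, while the genes called in all were 3222 or 3152 higher and 1371 or 1348 lower. Without PM replicate 1, 5 members were higher (4919 of 22152 genes), and without PM replicate 2, 5 were lower (1855 of 22377 genes) and the median was -0.14. Without CD11b+ replicate 1 the median was -0.18. The PM libraries, on which both comparisons with B cells rest, stood apart as well. PM replicate 1 had the lowest value of its group for 15 of 20 core members, PM replicate 3 the lowest for 41 of 61 others and PM replicate 2 the highest for 40 of 61 others. CD11b- replicate 3 likewise had the lowest value of its group for 13 of 20 core members, and the highest for 18 of 61 others.

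CD11b+ and CD11b- B cells came from the same tissue and treatment, and the comparison asks how these genes differ between them. No member passed the threshold, while 15 genes of 21778 tested were called higher (0.0689%) and none lower. The count of members was also 0 by edgeR, which called 42 of 15588 genes higher, and by DESeq2, which called 328 of 22684 genes higher and 64 lower, and at such shares few of 81 members would be called. An unadjusted p under 0.05 was reached in limma by 10 members, all higher in CD11b+ B cells, against 4.65% of all genes, and by 7 in edgeR (781 of 15588 genes) and 7 in DESeq2 (1452 of 22684 genes). This count was 2 in TPM, where 740 of the 21778 genes reached it in that direction, and 3 with all 9 libraries fitted together, where 916 genes did. It was 3 without CD11b- replicate 1 (729 of 21919 genes) and 15 without CD11b+ replicate 1 (1029 of 21677 genes). With immunoglobulin genes left out of the total it was 17 (1048 of 21456 genes), with the block by title number 16 (1173 of 21778 genes) and with the block by description number 4 (653 of 21778 genes). Of the 81 members, 71 had a higher mean in CD11b+ B cells (60 in TPM and 64 after the length trend was removed). Of all 21778 genes, 11992 did (10027 and 12004). The median log2 difference of the members was 0.27, beside 0.03 for all genes. The libraries did not overlap for 31 members, all higher in CD11b+ B cells, against 8.63% of all genes and 9.20% of those with a mean FPKM of at least 10. The other members had a median of 0.30 (58 of 61 higher) and the core members one of 0.08 (13 of 20 higher).

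The 3 members with the lowest p were all accessory subunits of complex I. Ndufc2 had 74.3, 78.5 and 62.3 FPKM in CD11b- B cells and 103, 105 and 120 FPKM in CD11b+ B cells. The log2 difference was 0.60 (SE 0.14, limma adjusted p = 0.332). Ndufa5 had 59.3, 55.2 and 75.5 FPKM in CD11b+ B cells, each above the CD11b- values given before (log2 difference 0.62, SE 0.16, limma adjusted p = 0.393). Ndufb7 had 19.3, 21.2 and 21.3 FPKM in CD11b- B cells and 24.8, 26.6 and 34.0 FPKM in CD11b+ B cells (log2 difference 0.44, SE 0.15, limma adjusted p = 0.586). Sdha lay the other way with a log2 difference of -0.27, and its libraries overlapped. The lowest difference, -0.67, belonged to Cox7a1, whose values overlapped as well.

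**Figure D5:**
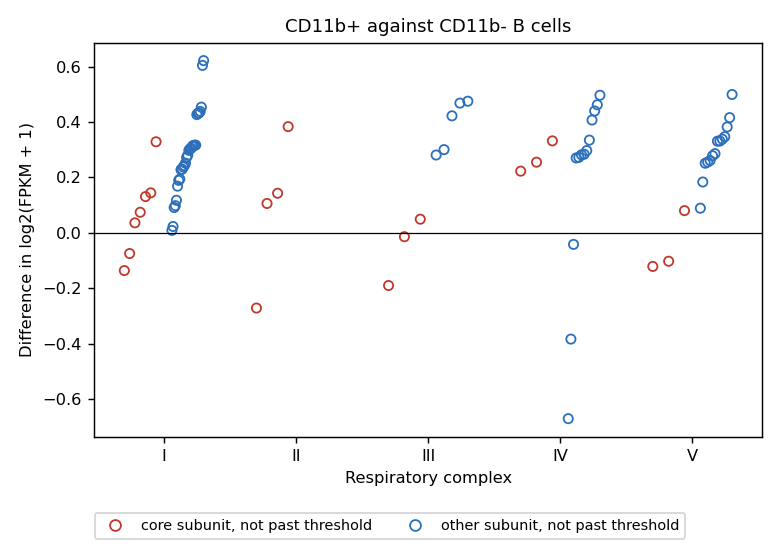
Difference in mean log2(FPKM + 1) between CD11b+ and CD11b- B cells for the 81 members tested, by complex. Each point is a gene, red for core and blue for other subunits, and open because none passed the threshold. Of the 81 points, 71 lie above 0, and all 29 accessory members of complex I do.

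By complex, 34 of 36 members of complex I, 3 of 4 of complex II, 6 of 8 of complex III, 13 of 16 of complex IV and 15 of 17 of complex V had the higher mean in CD11b+ B cells. Among all genes tested, 11992 of 21778 did. Without CD11b+ replicate 3 the other members had a median of 0.20 (53 of 61 higher) and the core members one of 0.19 (17 of 20 higher). The difference also moved with exon length, with a Spearman's rho of -0.40 across 75 members and -0.29 across 5100 genes whose mean FPKM reached 10. Below 1000 bases the 17 members, none of them core, had a median of 0.43 beside 0.20 for all genes of that length. From 1000 to 2000 bases the 24 other members had a median of 0.30 and the 7 core members one of 0.08, beside 0.13 for all genes. Beyond 2000 bases the medians were 0.27 for 14 other and 0.04 for 13 core members, beside -0.09 for all genes.

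Markers of other cells moved with the same contrast. A 12-gene neutrophil list summed to 658, 1587 and 217 FPKM in CD11b+ B cells and 1.77 to 3.06 FPKM in CD11b- B cells, with 12 of 12 genes higher on average, 3 of them past the threshold, and none at 0 in all libraries of either B cell group. The macrophage list had 11 of 11 genes tested higher on average and none past the threshold. The B cell list lay the other way, with 2 of 13 genes higher on average in CD11b+ B cells, a median log2 difference of -0.12 and none past the threshold. The erythroid list summed to 43.0 to 52.3 FPKM against 9.14 to 28.8 FPKM, and the proliferation list to 587, 545 and 227 FPKM against 136 to 370 FPKM. A plasma cell list summed to 252 to 641 FPKM against 101 to 179 FPKM, and a T and NK cell list to 2.74 to 3.69 FPKM against 0.0614 to 2.66 FPKM. Before the sort, cells that carried Gr-1, TER119, CD3, CD4, CD8 or NK1.1, markers of granulocytes, erythroid cells, T cells and NK cells, had been depleted. The part of these cells in the differences between members was not tested.

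Where tissue-specific forms of a subunit exist, all 3 groups used the forms common to most tissues. Cox4i1 was 99.9% to 100% of the Cox4 pair and Cox6a1 96.4% to 100% of the Cox6a pair in every library. Cox6b1, Cox7b, Cox8a and Ndufa4 each made up at least 99.2% of their family. Cox4i2 had 7 reads in the CD11b- libraries and none elsewhere, Cox7b2 had 1 read in CD11b- and 3 in CD11b+ B cells, Cox8b 1 read in CD11b- B cells and Ndufa4l2 3 reads in CD11b+ B cells. Ndufb11b, Cox8c and a second record named Atp5o had 0 reads in all libraries, where a group at 0 allows up to 3 reads.

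Of the 3 Cox7a genes, Cox7a1 had 2.07%, 1.14% and 1.05% of the family's FPKM in PMs, 0.286%, 0.826% and 0.984% in CD11b- B cells and 0.0313%, 0.134% and 0.402% in CD11b+ B cells. The PM shares lay above those of both B cell groups, at the exact permutation test's smallest possible p of 0.1 for 3 against 3 libraries (two-sided). Atp5g1, Atp5g2 and Atp5g3 encode the same mature ring subunit of complex V. Atp5g3 was the most abundant in all 3 groups, with mean shares of 58.2%, 60.2% and 58.0% in PMs, CD11b- and CD11b+ B cells. Atp5g1 had 19.9%, 23.8% and 20.1% in PMs, 14.4%, 16.6% and 15.9% in CD11b- B cells and 15.7%, 16.1% and 15.9% in CD11b+ B cells. The PM shares of Atp5g1 again lay above both B cell groups (exact permutation p = 0.1 for each). Between the B cell groups neither the Atp5g nor the Cox7a shares separated.

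Genes around the complexes were counted from fixed lists. Of 10 further subunits and carriers tested, 3 were higher and 1 lower in CD11b- B cells than in PMs, beside 25.8% and 11.0% of all genes. The largest rise was Slc25a5, an ADP/ATP carrier, at 97.4, 286 and 297 FPKM in PMs and 633, 563 and 490 FPKM in CD11b- B cells (log2 difference 1.46, SE 0.42, limma adjusted p = 0.0288). Atpif1, the inhibitor of the ATP synthase, fell from 166, 186 and 129 FPKM to 25.2, 31.1 and 27.8 FPKM (log2 difference -2.46, SE 0.19, limma adjusted p = 5.33e-05). It was also lower than in PMs in CD11b+ B cells, at 35.5, 36.0 and 47.8 FPKM (log2 difference -1.98, SE 0.22, limma adjusted p = 0.000332), where again 3 of the 10 were higher and 1 lower. Of these rises Cyc1, the cytochrome c1 of complex III, was the largest past the threshold in CD11b+ B cells (log2 difference 1.38, SE 0.23).

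Of 46 assembly factors tested, 13 were higher and 4 lower in CD11b- B cells than in PMs, and 8 and 3 in CD11b+ B cells, near the shares of all genes in the first comparison and below them in the second (21.5% and 8.78%). Taco1, which activates translation of a complex IV subunit, had the largest rises (log2 differences 2.04 and 2.21) and Uqcc2, a complex III assembly factor, the largest falls (-1.78 and -1.39). Among 17 regulators and factors of mitochondrial DNA expression, 7 and 6 were higher and none lower, beside 25.8% and 21.5% of all genes called higher and 42.5% and 37.9% of abundant ones. Tfam, which packages and transcribes mitochondrial DNA, had 3.76, 5.17 and 5.67 FPKM in PMs, 27.7, 27.3 and 17.3 FPKM in CD11b- B cells and 27.1, 27.6 and 22.8 FPKM in CD11b+ B cells. Its log2 differences were 2.08 and 2.20 (SE 0.25 and 0.22, limma adjusted p = 0.000598 and 0.000196). Of 19 genes of pyruvate oxidation and the TCA cycle, 11 and 8 were higher and none lower, the second near the 37.9% of abundant genes and the first beside 42.5%, led by Pdhb, a subunit of pyruvate dehydrogenase (log2 differences 1.66 and 1.54). The direction of each of these named genes, the largest called changes of their lists, held after median-ratio scaling. Sizes moved, with Slc25a5 at 0.93 in CD11b- B cells against PMs. Some smaller changes of these lists turned below 0, such as Ndufaf3, an assembly factor, from 0.37 to -0.13 in that comparison. Between the B cell groups no gene of these 4 lists passed the threshold, and the median log2 differences were 0.19, 0.02, -0.01 and -0.12 in the order given.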

How the data were processed

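RNA-seq of 3 PM, 3 CD11b- B cell and 3 CD11b+ B cell libraries was used, grouped by the labels, which do not assign libraries to the study's repeated sequencing trials. The authors made cDNA by SMART-seq, which amplifies without molecular identifiers, so intervals and floors cover counting error only. The submitters' processing notes name Trim Galore, Trimmomatic, cutadapt, STAR 2.7.2b, featureCounts 1.6.1 and DESeq2 1.20.0. Strand and multimapping settings were not given in the sources used here. Overlapping genes and near-identical copies are therefore uncertain. The main table holds FPKM per gene as deposited by the authors, with exon length and read counts recoverable from the FPKM steps. In all libraries 100% of values came out as whole reads within 0.05 of a read. A second table deposited by the authors holds a normalised signal (read counts divided by a size factor), here only compared with the first. That table is limited to genes the authors selected by a p-value, and its column of cluster numbers was not used. The labels name both GRCm38 and GRCm39, and the annotation behind the table's exon lengths and gene records is not known. Its positions differed from GENCODE M21, so positions given are those of M21 (GRCm38).

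The members and gene lists were chosen with earlier results of these data known. Genes whose FPKM averaged 0.05 or more over the 6 libraries compared were tested on log2(FPKM + 1), a scale that understates changes of low genes, with limma 3.58.1 (trend) in R 4.3.3 and Benjamini-Hochberg adjustment at 0.05. Named genes were the core members, the paralog families, the 5 members with the largest called rise and fall without overlap in each comparison (where none passed, the 3 of lowest p), the 3 of highest mean FPKM and those with under 3 reads in a group. Other members were named after their values were seen. The values of 1 core member are not reported here by name. Alternatives were other pseudocounts, filters and scalings, edgeR 4.0.16 and DESeq2 1.42.0 on the recovered reads, a replicate block and leaving out each library. A correction for exon length was added after the data were seen. The fits were tested on simulated data.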

Additional observations from a re-analysis of the deposited data

Results flagged for a closer look

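Reads were also found on records whose names match the members but which are not typed as protein coding and so entered no comparison. Over the 9 libraries, Ndufa12-ps had 305 reads, Ndufs5-ps had 140 reads and Atp5pb-ps had 89 reads, above the 3 reads that a count of 0 allows. All 16 such records together held 793 reads, beside 3178707 reads on the members. How reads shared with the parent genes were assigned was not tested.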

How the results depend on the processing

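Between CD11b+ and CD11b- B cells, 0 members were called under every alternative run, and the median log2 difference of 0.27 became 0.14 in TPM and 0.16 after length correction. For CD11b+ B cells against PMs, the 8 members called higher became 1 without a filter on low values, after median-ratio scaling, in edgeR, in DESeq2 or after length correction, 13 with all 9 libraries fitted together, and 2 to 9 when 1 library was left out. The 12 called lower became 3 without a filter, 19 with a minimum FPKM of 10, 31 after median-ratio scaling, 20 with all 9 libraries, 38 in edgeR, 39 in DESeq2, 29 after length correction and 3 to 17 when 1 library was left out. The median of -0.27 became -0.76 after median-ratio scaling, -0.80 in edgeR and in DESeq2 and -0.58 after length correction, and lay between -0.46 and -0.14 when 1 library was left out. For CD11b- B cells against PMs, the 10 called higher became 14 in TPM, 5 without a filter, 2 after median-ratio scaling, 3 in edgeR and in DESeq2 and 4 after length correction. They became 7 to 12 when 1 library was left out. The 36 called lower became 26 in TPM, 14 without a filter, 52 after median-ratio scaling, 51 in edgeR, 53 in DESeq2 and 42 after length correction. They became 17 to 38 when 1 library was left out. The median of -0.56 became -0.37 in TPM, -1.05 after median-ratio scaling, -1.18 in edgeR and -1.20 in DESeq2. The counts over all genes moved too. Against PMs, genes called higher in CD11b+ B cells went from 4760 to 2864 without a filter, 2918 after median-ratio scaling, 5689 with all 9 libraries, 2850 in edgeR, 3550 in DESeq2 and 2961 after length correction. Those called lower went from 1940 to 1335, 2555, 2284, 2758, 3404 and 2668 in the same order, and to 877 of 4757 genes with a minimum FPKM of 10. In CD11b- B cells, genes called higher went from 5404 to 6544 in TPM, 3375 without a filter, 3401 after median-ratio scaling, 3200 in edgeR, 3702 in DESeq2 and 3422 after length correction. Those called lower went from 2306 to 2112, 1565, 3079, 3163, 4014 and 3132 in the same order. The causes were not tested. No called member changed sign under the 7 other scalings and count models, and no median over all members did. Members that had not passed did, both core (among them Ndufs3 and Cox5a after median-ratio scaling) and other. After that scaling, the other members above 0 went from 9 to 2 of 61 in CD11b- B cells against PMs. In CD11b+ B cells against PMs they went from 14 to 4. With the replicate block, 6 members were higher and 7 lower in CD11b+ B cells than PMs, 10 and 34 in CD11b- B cells than PMs, and 0 between the B cell groups, where 4111 and 1743, 4948 and 2177, and 16 of all genes were. The title numbers were not shown to pair libraries. Between the B cell groups, same-numbered libraries correlated at 0.40, -0.06 and 0.24, and with PMs, which are other mice, between -0.26 and 0.11. Both B cell pairs that share a number in the sample descriptions are those at 0.40 and 0.24. Arranged by that number, the block gave a median of 0.32 between the B cell groups and called 0 of all 21778 genes, so its 0 members says nothing of the members. With 3 libraries a group, an exact permutation test cannot go below 0.1.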
